A study of Saccharomyces cerevisiae with 4 samples.

Results

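The genes described are 8 inducible genes of budding yeast that are known to move to nuclear pores when they are switched on: GAL1, GAL10, GAL7, GAL2, INO1, TSA2, HXK1 and HSP104. They were chosen by name, as the probes whose primary annotation in the files is one of these open reading frames (ORFs). The files hold 82 such probes, 33 of class promoter, 47 inside an ORF and 2 downstream, out of 41480 nuclear probes. All 82 were measured and not marked for exclusion in each library, and the 8 genes stand among 5527 genes with at least 2 probes.

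The study used ChIP-chip, in which DNA bound to a tagged protein is pulled down and read on a whole-genome array, for the paralogous inner-ring pore proteins Nup157p and Nup170p. There were 4 libraries, 1 in each group, so no comparison here has a replicate check. They hold Nup157 from wild type, and Nup170 from strains labelled sir4∆, yku70∆ and wild type. SIR4 encodes a protein of silent chromatin, and YKU70 part of the Ku dimer, which binds chromosome ends. By their labels all strains are MATa with the alleles his3∆1, leu2∆0, ura3∆0 and lys2∆0. The Nup157 strain carries NUP157-9xMYC::hphR, and each Nup170 strain carries NUP170-9xMYC::hphR, with sir4∆::natR or yku70∆::natR added in the deletion strains. All cultures grew in YPD, a rich glucose medium, at 30 °C to an OD600 of 1 and were fixed with 1% formaldehyde for 1 h. No galactose, inositol-free, peroxide or heat treatment is among the labels, and transcription was not measured, so the uninduced state is taken from the medium. An untagged strain was not analysed here, so the ratio such a strain would give at these genes is unknown.

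In yeast, glucose keeps the galactose genes off, and after a shift to galactose the activator Gal4p switches on GAL1, GAL10, GAL7 and GAL2, which then come to lie at the nuclear pore. INO1 is held off by the repressor Opi1p while inositol is at hand, and short elements in its promoter direct the active gene to the pore. TSA2, HXK1 and HSP104 answer to oxidative stress, to a carbon source other than glucose, and to heat or ethanol, and they too have been found at the nuclear edge when active.

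A value is the log2 ratio of ChIP (Cy5) over whole cell extract (Cy3), as the mean of the 2 hybridisations in each file, each centred on its own median over all probes, so that 0 is the middle of the genome. These hybridisations are repeat measurements of 1 library. A gene value is the mean over the probes annotated to the gene. The lower-side SD of all probes, a measure of spread taken from the values under the median, was 0.50 for Nup157, against 0.19, 0.18 and 0.22 for Nup170 in the strains labelled sir4∆ and yku70∆ and in wild type. Equal log2 ratios therefore rank differently, and percentiles within a library are given as well. The extract channel, a readout of each strain's own DNA, puts the deletion labels in doubt. The 15 SIR4 probes stood at a median of 70.6% of the other libraries in the library labelled sir4∆, and all 15 were above blank spots. The 7 YKU70 probes stood at 96.6% in the library labelled yku70∆. At LYS2, labelled deleted throughout, 0 of 16 probes were above blank for Nup157 and 16 of 16 for Nup170 in wild type. The libraries are therefore called by their labels, and Nup157 and Nup170 cannot be told apart from other differences between their strains. At the 8 genes themselves the extract signal lay within -0.18 to 0.13 of the other libraries on the log2 scale, and 0 of 328 readings were near blank. Relative to the other libraries, the Nup157 extract was at -0.18 for GAL1, -0.16 for INO1, -0.12 for TSA2 and 0.098 for GAL7, as medians over probes. For the other members it lay between -0.0063 and 0.028. A lower extract raises the ratio, and what part of the Nup157 values it makes up was not tested.

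No member reached a gene value of 1.5-fold up in any library, against 5.57% of all genes with Nup157 and 0.941%, 1.63% and 2.37% for Nup170 in the strains labelled sir4∆ and yku70∆ and in wild type. None reached 1.5-fold down either, where the shares of all genes were 2.53%, 0%, 0% and 0.0362% in the same libraries. With Nup157, INO1, GAL1 and TSA2 were the highest members and GAL7 the lowest. GAL7 was the lowest member in all 4 libraries. With Nup170 the other members lay between -0.14 and 0.10, although some were far out by rank: TSA2 stood at percentile 8.49 in the library labelled yku70∆, and GAL10 and GAL1 at 13.0 and 14.3 in the one labelled sir4∆.

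The median of the 8 gene values was 0.096 with Nup157, where the median of all genes was -0.0082. It was -0.043 for Nup170 in the strain labelled sir4∆, -0.034 in the one labelled yku70∆ and -0.023 in wild type, where all genes had medians of -0.0099, -0.012 and -0.021. Members above 0 numbered 5 of 8 with Nup157, against a background of 48.9% of all genes, and 2 of 8 in each Nup170 library, against 46.2%, 45.7% and 43.0%. In the middle 50% of all genes lay 5 members for Nup157, and 4, 6 and 5 for Nup170 in the strains labelled sir4∆ and yku70∆ and in wild type. The members thus spread widely among all genes, from percentile 4.94 to 90.8 with Nup157 and from percentile 1.81 to 83.0 over the Nup170 libraries. The low end was GAL7 in each library, and it lay under the 5th percentile of all genes in all 4.

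**Figure D1:**
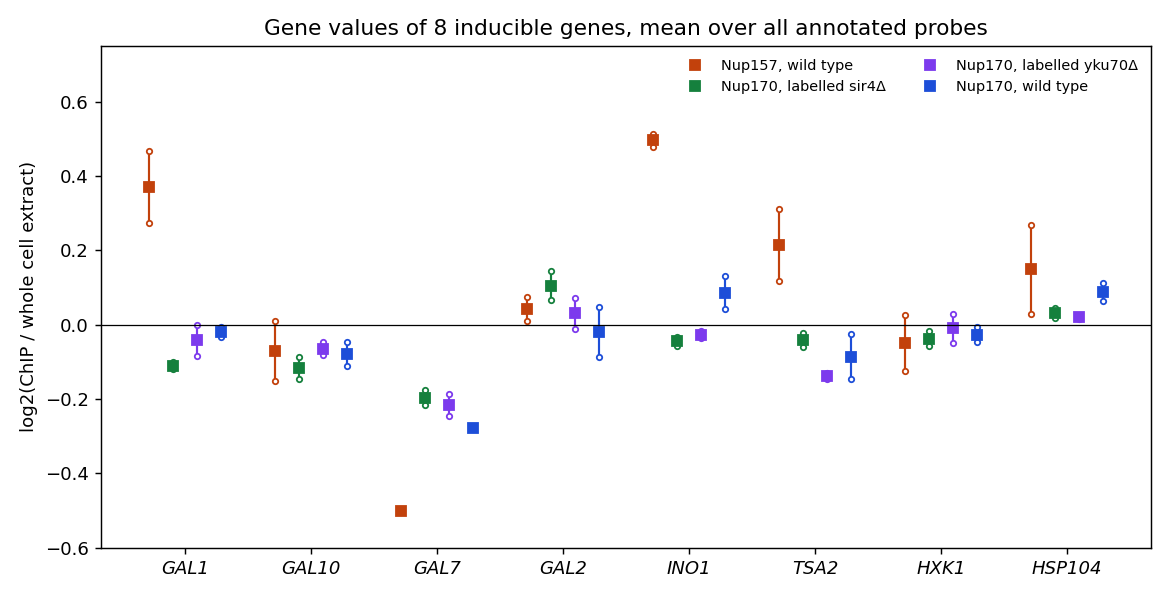
Gene values of the 8 genes as log2(ChIP / whole cell extract), with a filled square for the mean of a library and open circles joined by a line for its 2 hybridisations. INO1 at 0.50 and GAL7 at -0.50 are the ends of the Nup157 values, while all Nup170 values lie between -0.28 and 0.10.

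The galactose genes GAL7, GAL10 and GAL1 lie side by side on chromosome 2, with probes from position 274486 to 280524 in the coordinates of the files, whose build no source used here names. GAL10 and GAL1 are read away from a shared promoter region. GAL1, the galactokinase gene (YBR020W, 7 probes, 1 of them promoter), had a gene value of 0.37 with Nup157, with hybridisations at 0.27 and 0.47. With Nup170 it was at -0.11 in the library labelled sir4∆, at -0.042 in the one labelled yku70∆ and at -0.019 in wild type. The Nup157 value thus stood above all Nup170 values of the gene, hybridisations included.

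Within GAL1 the Nup157 signal was uneven. The probe 36 bp into the gene was at -0.48, and the next 4, from 407 to 1344 bp, ran from 0.55 to 0.89 with a mean of 0.75. These 4 probes were picked after their values were seen, so a high Nup157 mean over them follows from the choice. Over the same 4 probes the mean was -0.11, -0.034 and -0.020 for Nup170 in the strains labelled sir4∆ and yku70∆ and in wild type. The mean of -0.034 covers probes from -0.27 to 0.30. All 6 ORF probes of GAL1 averaged 0.39 with Nup157, and -0.11, -0.014 and 0.012 in the same Nup170 libraries. The last probe, 1515 bp in, was back at -0.21 with Nup157, where its hybridisations lay far apart at -0.84 and 0.41. The high probes were thus inside the coding sequence, and where the stretch ends on the far side is undecided. The promoter probe of GAL1, 298 bp before the start, was at 0.27 with Nup157 and at -0.14, -0.21 and -0.21 for Nup170 in the strains labelled sir4∆ and yku70∆ and in wild type.

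GAL10, which encodes the epimerase and mutarotase of galactose use (YBR019C, 9 probes, 1 of them promoter), was slightly below 0 in all 4 libraries. Its gene value was -0.072 with Nup157, and -0.12, -0.064 and -0.079 for Nup170 in the strains labelled sir4∆ and yku70∆ and in wild type. Among all genes these values stood at percentiles 42.2, 13.0, 28.2 and 29.6. The probes inside it ranged with Nup157 from -0.65 at 1631 bp to 0.55 at 897 bp. The probe at 1631 bp was also the lowest of the gene for Nup170 in wild type, at -0.39, and in the libraries labelled sir4∆ and yku70∆, at -0.41 and -0.34. The promoter probe, on the other side of the shared region from that of GAL1, lay between -0.12 and -0.046 in the 4 libraries.

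GAL7, the gene of the galactose uridylyltransferase (YBR018C, 6 probes, 3 of them promoter), was low in every library. Its gene value was -0.50 with Nup157, with hybridisations at -0.50 and -0.51, and it was -0.33 with the trend of the ratio on intensity removed. For Nup170 it was -0.20 in the strain labelled sir4∆, -0.22 in the one labelled yku70∆ and -0.28 in wild type, where both hybridisations gave -0.28. Among all genes these values stood at percentiles 4.94, 3.04, 1.81 and 1.90, so the Nup170 value in wild type is no higher in rank than that of Nup157. All 6 probes were below 0 in each library apart from 1 probe at 0.0058 in the library labelled sir4∆. The lowest promoter probe, 371 bp upstream, was at -0.89 with Nup157 and at -0.42, -0.54 and -0.42 for Nup170 in the strains labelled sir4∆ and yku70∆ and in wild type.

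**Figure D2:**
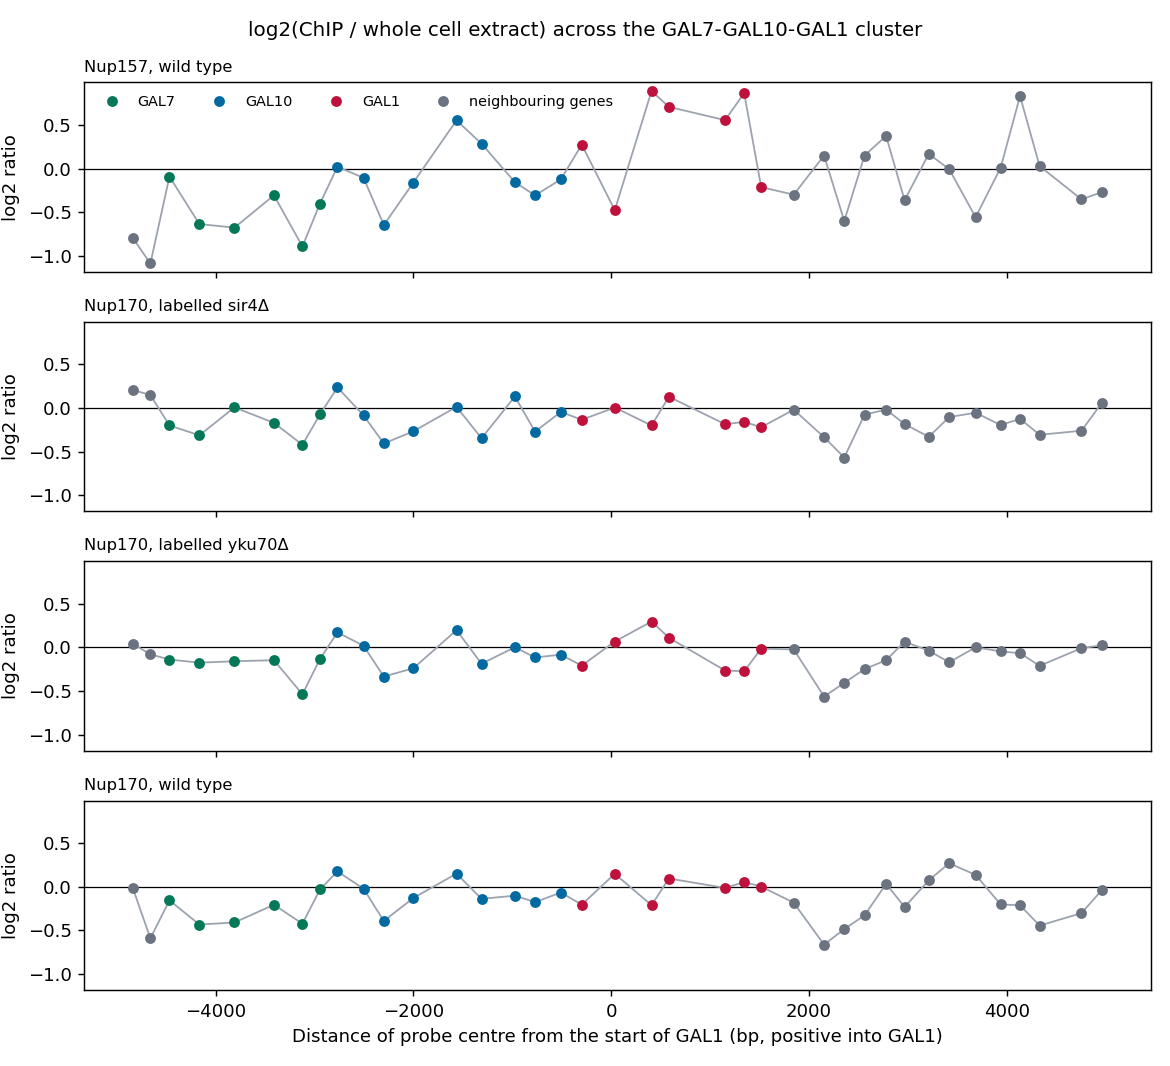
log2(ChIP / whole cell extract) at each probe across GAL7, GAL10 and GAL1, by distance in bp from the start of GAL1, with 1 panel for each library and neighbouring genes in grey. The 4 GAL1 probes from 407 to 1344 bp, picked after their values were seen, stand between 0.55 and 0.89 with Nup157 alone. GAL7 lies under 0 in all panels apart from 1 probe.

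GAL2, the galactose permease gene, lies apart from the cluster on chromosome 12 (YLR081W, 9 probes at 289474 to 292005, 2 of them promoter and 1 downstream). Its gene value was 0.042 with Nup157, and 0.10, 0.030 and -0.019 for Nup170 in the strains labelled sir4∆ and yku70∆ and in wild type. These stood at percentiles 55.9, 83.0, 65.0 and 50.6 of all genes. A single probe inside it was high everywhere. At 999 bp into the gene (291182 to 291241) it read 1.08 with Nup157, 0.84 and 0.92 for Nup170 in the libraries labelled sir4∆ and yku70∆, and 0.53 in wild type. That put it at percentiles 98.9, 99.6, 99.5 and 97.3 among all probes inside ORFs.

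The neighbours of this probe did not follow it. The probes 644 and 1170 bp into GAL2 lay between -0.20 and 0.14 in the 4 libraries. In the authors' deposited table the probe at 999 bp was marked as lying in a bound region in the libraries labelled sir4∆ and yku70∆, with p-values of 2.25e-05 and 0.000172. The probe at 644 bp was marked in both as well, with p-values of its own of 0.652 and 0.466 in that table. The probe at 1170 bp was marked in the library labelled sir4∆, with 0.262. The promoter probe 232 bp upstream read -0.20 with Nup157 and -0.45, -0.34 and -0.41 for Nup170 in the strains labelled sir4∆ and yku70∆ and in wild type. The downstream probe was at -1.04 with Nup157, against -0.35 with Nup170 in wild type.

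INO1, the gene of inositol 3-phosphate synthase, which makes the first committed step to inositol, lies on chromosome 10 (YJL153C, 8 probes at 134232 to 136065, 3 of them promoter). It was the highest member with Nup157, at 0.50 with hybridisations at 0.48 and 0.51, or percentile 90.8. For Nup170 it was at -0.045 in the strain labelled sir4∆, -0.027 in the one labelled yku70∆ and 0.087 in wild type. All 8 probes were above 0 with Nup157, from 0.19 to 0.98. Part of that value moves with brightness: with the intensity trend removed, INO1 had 0.29 with Nup157. The same step left TSA2 at 0.12, HSP104 at 0.082 and GAL2 at -0.029 with Nup157.

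The promoter of INO1 was the member promoter with the highest value in each library, and the only member promoter above 0 in all 4. Its 3 probes averaged 0.57 with Nup157, 0.12 for Nup170 in the strain labelled sir4∆, 0.14 in the one labelled yku70∆ and 0.23 in wild type. Among the promoters of all genes these values stood at percentiles 93.2, 83.9, 87.2 and 91.1. At 404 bp before the start the probe read 0.98 with Nup157, against 0.13 with Nup170 in wild type. At 225 bp, where the Nup157 hybridisations gave 0.70 and -0.16, it read 0.27 with Nup157, against 0.42 with Nup170 in wild type. The promoter probe that was highest for Nup157 was therefore the farther one, and for Nup170 in all 3 libraries the middle one.

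Inside INO1 the libraries parted. The 5 ORF probes averaged 0.45 with Nup157, at percentile 83.8. They averaged -0.14 and -0.12 for Nup170 in the libraries labelled sir4∆ and yku70∆, at percentiles 8.73 and 9.28, and -0.0018 in wild type, at percentile 47.4. The ORF mean minus the promoter mean was -0.11 with Nup157, whose hybridisations gave -0.29 and 0.062 and so differed in sign. For Nup170 it was -0.26 in both the library labelled sir4∆ and the one labelled yku70∆, and -0.24 in wild type, with every hybridisation below 0. Against all genes these differences stood at percentiles 28.1 for Nup157 and 6.64, 5.27 and 7.26 for Nup170. INO1 was the only member whose ORF lay below its promoter in all 4 libraries.

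TSA2, a peroxiredoxin gene on chromosome 4 (YDR453C, 6 probes at 1365146 to 1366262, 4 of them promoter), had a gene value of 0.21 with Nup157, with hybridisations at 0.12 and 0.31. For Nup170 it was -0.040 in the strain labelled sir4∆, -0.14 in the one labelled yku70∆ and -0.086 in wild type. With Nup157 the last 3 probes, at the start of the gene and inside it, were the highest, at 0.45, 0.52 and 0.42. The same 3 probes, picked after their values were seen, read -0.12, 0.032 and -0.41 with Nup170 in wild type. The probe 358 bp upstream read 0.27 with Nup157, with hybridisations at -0.032 and 0.57, against 0.049 with Nup170 in wild type. The 4 promoter probes averaged 0.087 with Nup157 and -0.072, -0.12 and -0.035 for Nup170 in the strains labelled sir4∆ and yku70∆ and in wild type.

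HXK1, the gene of a hexokinase used when glucose is scarce, lies on chromosome 6 (YFR053C, 25 probes at 253485 to 259566, 18 of them promoter and 1 downstream). The gene value was near 0 throughout: -0.048 with Nup157, and -0.037, -0.0099 and -0.027 for Nup170 in the strains labelled sir4∆ and yku70∆ and in wild type. That value mixes unlike parts, since the files annotate probes up to 4502 bp upstream to HXK1. The next gene annotated on that side, IRC7, lies 9154 bp away.

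Split by distance, the Nup157 signal of HXK1 was low far upstream and higher inside the gene. The 15 probes over 1000 bp upstream averaged -0.25 with Nup157, 11 of them below 0, against -0.042 with Nup170 in wild type. The mean depends on that distance: the 12 probes over 1800 bp upstream averaged -0.40 with Nup157, against -0.033 with Nup170 in wild type. That set leaves out the probes at 1077, 1464 and 1629 bp, which read 0.84, 0.26 and 0.032 with Nup157. The split by distance was chosen after seeing the data. The 3 probes within 1000 bp averaged 0.042 with Nup157, and -0.14, -0.13 and -0.27 for Nup170 in the strains labelled sir4∆ and yku70∆ and in wild type. The 6 ORF probes averaged 0.32 with Nup157, and -0.011, 0.017 and 0.021 in the same Nup170 libraries. A probe 1077 bp upstream was above 0 in all 4 libraries, at 0.84 with Nup157 and 0.29, 0.17 and 0.28 for Nup170. The downstream probe was above 0 in all 4 as well, at 0.40 with Nup157 and 0.62, 0.47 and 0.63 for Nup170.

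HSP104, the gene of a disaggregating chaperone, lies on chromosome 12 (YLL026W, 12 probes at 88498 to 91215, 1 of them promoter). Its gene value was 0.15 with Nup157, with hybridisations at 0.030 and 0.27, and 0.031, 0.019 and 0.088 for Nup170 in the strains labelled sir4∆ and yku70∆ and in wild type. The Nup157 range thus held the value for Nup170 in wild type. A pair of adjacent probes, 1546 and 1717 bp into the gene, read 0.97 and 0.83 with Nup157, against -0.035 and 0.22 with Nup170 in wild type. The second of them was marked bound for Nup157 in the authors' deposited table, with a p-value of 0.0434. The last probes of the gene, at 2404 and 2564 bp, went the other way. They read -0.30 and -0.41 with Nup157, against 0.30 and 0.18 with Nup170 in wild type. For Nup157 minus Nup170 in wild type, 4 of the 12 probes were above 0 in every pairing of hybridisations (background 27.9%) and 4 below 0 (28.9%). The single promoter probe was at -0.32, -0.40 and -0.20 for Nup170 in the strains labelled sir4∆ and yku70∆ and in wild type, while with Nup157 its hybridisations read -0.54 and 0.44 and gave no direction.

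**Figure D3:**
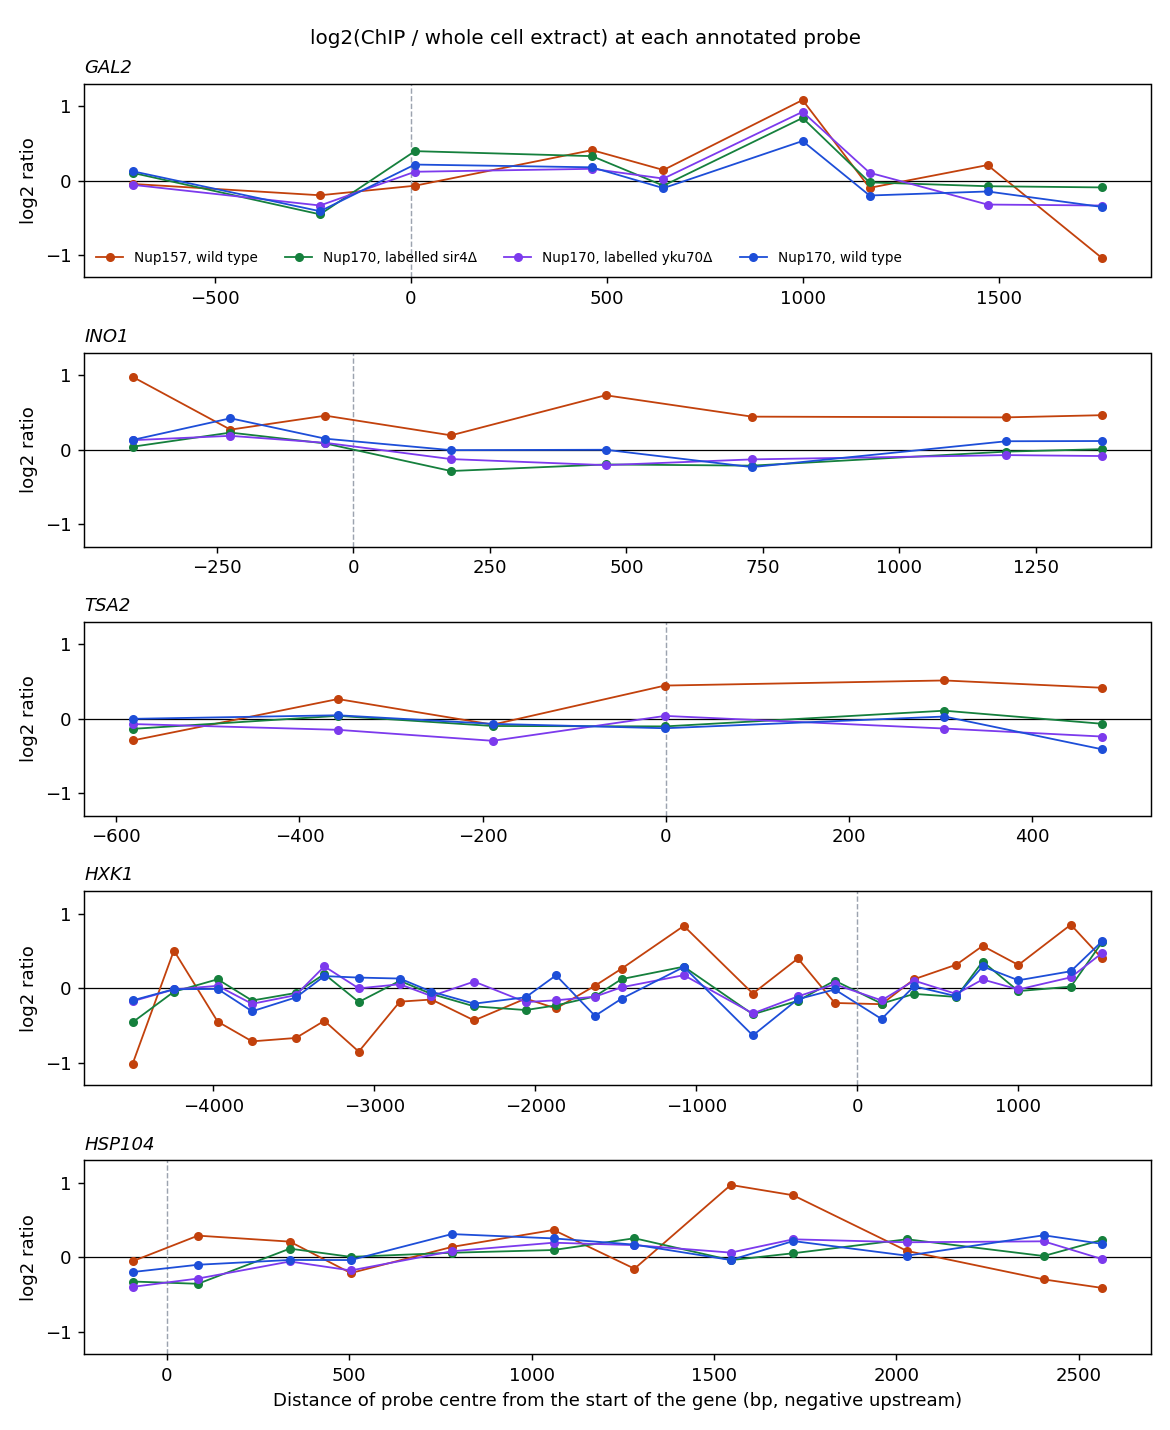
log2(ChIP / whole cell extract) at each annotated probe of GAL2, INO1, TSA2, HXK1 and HSP104, by distance in bp from the start of the gene (dashed line), with a line for each library. The probe 999 bp into GAL2 stands at 0.53 or more in all 4 libraries, and over INO1 the Nup157 line lies above the others at 7 of 8 probes.

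Single probes past 1.5-fold up numbered 10 of 82 with Nup157, against a background of 12.1% of all probes. For Nup170 there were 2 in the library labelled sir4∆, 1 in the one labelled yku70∆ and 1 in wild type, where the background was 1.95%, 2.56% and 3.25%. Past 1.5-fold down there were 9 with Nup157 (background 13.0%) and 1 with Nup170 in wild type (1.01%), and none in the libraries labelled sir4∆ (0.321%) and yku70∆ (0.391%). These shares of the members lie near the background or, going up for Nup170 in the library labelled yku70∆ and in wild type, under it. Requiring both hybridisations past 1.5-fold up left 9 with Nup157 (background 6.99%), 1 in the library labelled sir4∆ (1.38%), 1 in the one labelled yku70∆ (1.95%) and 0 with Nup170 in wild type (1.97%). Both were past 1.5-fold down at 4 with Nup157 (5.81%) and at 0 in the Nup170 libraries (0.111%, 0.176% and 0.403%).

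The authors' deposited table marks 3 of the 82 probes as bound with Nup157, or 3.66%, against 5.18% of all probes. For Nup170 it marks 3 (3.66%, against 4.73%) in the library labelled sir4∆ and 2 (2.44%, against 5.35%) in the one labelled yku70∆. In wild type it marks 0 for Nup170 (background 5.39%). The Nup157 marks are the HSP104 probe above and the GAL1 probes at 583 and 1151 bp, whose own p-values in the authors' deposited table are 0.0705 and 0.118. All marks in the libraries labelled sir4∆ and yku70∆ are in GAL2, around the probe at 999 bp. No promoter probe of a member carries a mark in any library, but the share of all promoter probes with a mark was not computed.

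Promoters and ORFs were compared within each gene, since promoter elements are known to direct INO1 to the pore. Over the genome ORFs read higher than promoters, by a median of 0.15 with Nup157, and 0.093, 0.13 and 0.17 for Nup170 in the strains labelled sir4∆ and yku70∆ and in wild type. The members gave medians of 0.17 with Nup157 and 0.062, 0.088 and 0.044 in the same Nup170 libraries. The ORF mean was above the promoter mean in 7 of 8 members with Nup157 (background 62.6%), in 6 and 6 for Nup170 in the libraries labelled sir4∆ (67.1%) and yku70∆ (74.5%), and in 4 in wild type (75.1%). GAL1, GAL2, HXK1 and HSP104 had the ORF mean above the promoter mean in all 4 libraries, but only GAL2 had it in every hybridisation. The hybridisations differed in sign for HSP104 with Nup157, at 0.62 and -0.18, and in the library labelled sir4∆ for GAL1, at 0.29 and -0.23, and HXK1, at 0.19 and -0.050. HSP104 showed it at 0.39, 0.45 and 0.31 for Nup170 in the strains labelled sir4∆ and yku70∆ and in wild type, on a single promoter probe.

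**Figure D4:**
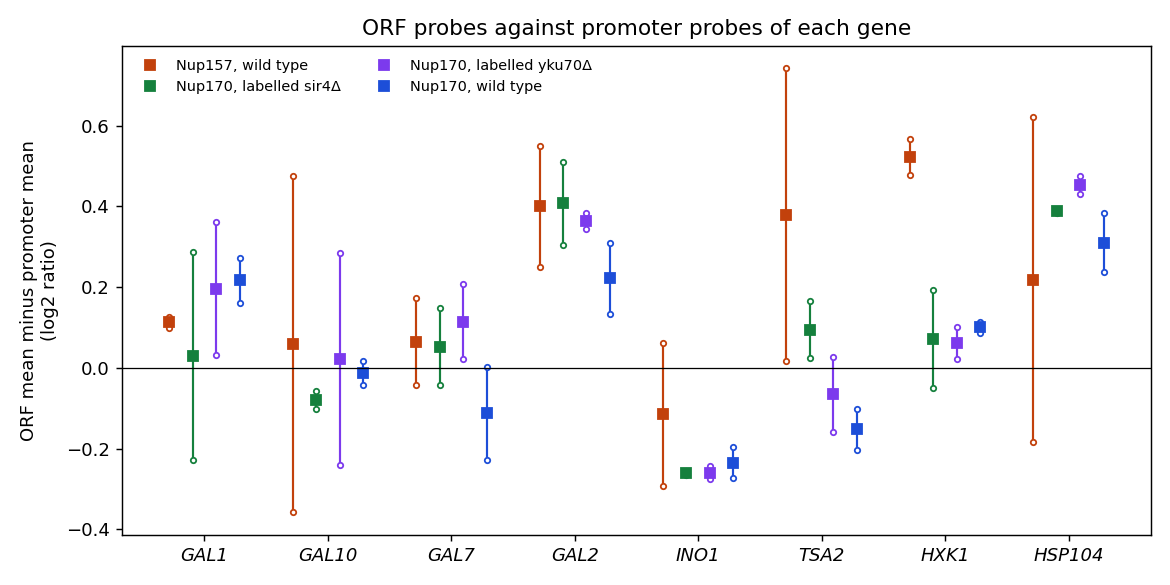
ORF mean minus promoter mean of the log2 ratio for each gene, with a square for each library and open circles for its 2 hybridisations. INO1 is below 0 in all 4 libraries, from -0.26 to -0.11, while GAL2 stands between 0.22 and 0.41.

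Nup157 in wild type was set against Nup170 in wild type to see whether the paralogs differ at these genes. INO1 was 0.41 higher with Nup157, GAL1 0.39 higher and TSA2 0.30 higher on the log2 scale, and GAL7 stood at -0.22. These 4 kept their direction in all 4 pairings of a Nup157 with a Nup170 hybridisation, with ranges of 0.35 to 0.47, 0.28 to 0.50, 0.14 to 0.46 and -0.23 to -0.22. Among all genes the differences stood at percentiles 89.4, 88.6, 82.5 and 23.5. The share of all genes that keep their direction in all pairings was not computed, for this or the other comparisons. At these 4 genes the Nup157 extract also stood apart from the other libraries, as given above, and its part in the differences was not tested. For GAL2, HSP104, GAL10 and HXK1 the pairings differed in sign. The GAL7 difference was -0.083 with the intensity trend removed, and it turned to 0.28 when each library was divided by its own lower-side SD, a scale on which the gene stood at -0.96 with Nup157 and -1.24 with Nup170.

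Of the 8 members 6 were above 0 in this difference, against a background of 47.8% of all genes. The median was 0.061, with pairings from -0.0036 to 0.14, where all genes had -0.016. Over ORF probes alone the median was 0.25 and 7 of 8 members were above 0, where all genes had a median of 0.0070 and 51.0% above 0. Over promoter probes alone the median was 0.072 and 5 of 8 members were above 0, where all genes had 0.027 and 52.1%. No gene value of a member differed by 1.5-fold (background 4.40% up and 2.35% down). Single probes at least 1.5-fold up numbered 10 (background 10.9%) and at least 1.5-fold down 7 (12.9%). Above 0 in all 4 pairings were 28 of the 82 probes (background 27.9%), and 22 were below 0 in all 4 (28.9%). INO1 had 6 of its 8 probes above 0 in all 4 pairings and 0 below. With Nup157 the ORF of TSA2 stood 0.65 higher, the largest ORF difference of the members, on 2 probes.

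The Nup170 libraries labelled sir4∆ and yku70∆ were each set against Nup170 in wild type, to see whether these genes respond to the labelled deletions. All 3 comparisons share the Nup170 wild-type library, so its own errors enter each of them. In the library labelled sir4∆, INO1 stood at -0.13 relative to wild type (pairings -0.19 to -0.073), GAL1 at -0.091 (-0.11 to -0.069) and HSP104 at -0.057 (-0.094 to -0.020). GAL2 stood at 0.12 (0.019 to 0.23) and GAL7 at 0.081 (0.059 to 0.10), and the other 3 members changed sign between pairings. The GAL1 difference came from its ORF, at -0.12, and its promoter probe gave 0.070 with pairings on both sides of 0.

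In the library labelled yku70∆, INO1 stood at -0.11 relative to wild type (pairings -0.17 to -0.057), HSP104 at -0.069 (-0.095 to -0.042) and GAL7 at 0.061 (0.028 to 0.094). The other 5 members had pairings on both sides of 0. INO1 was the lowest member in both comparisons, at percentiles 7.44 and 5.66 of all genes. Over all members, 22 of 82 probes were below 0 in all 4 pairings in the library labelled sir4∆ (background 17.6%) and 20 in the one labelled yku70∆ (15.7%). Above 0 in all 4 pairings were 6 (16.8%) and 11 (16.7%). INO1 had 5 and 4 of its 8 probes below 0 in all pairings in these libraries, and none above.

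Over all members the median difference was -0.024 in the library labelled sir4∆ and -0.0043 in the one labelled yku70∆, where all genes had 0.0019 and 0.0065. Members above 0 numbered 3 of 8 (background 51.0%) and 4 of 8 (53.8%). No gene value of a member was past 1.5-fold in the library labelled sir4∆ (background 0% up and 0.235% down) or in the one labelled yku70∆ (0% up and 0.0181% down). The same held for single member probes in the library labelled sir4∆ (background 0.208% up and 0.292% down) or in the one labelled yku70∆ (0.135% up and 0.128% down). With 1 library in each group, differences of this size cannot be set against the spread between cultures.

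**Figure D5:**
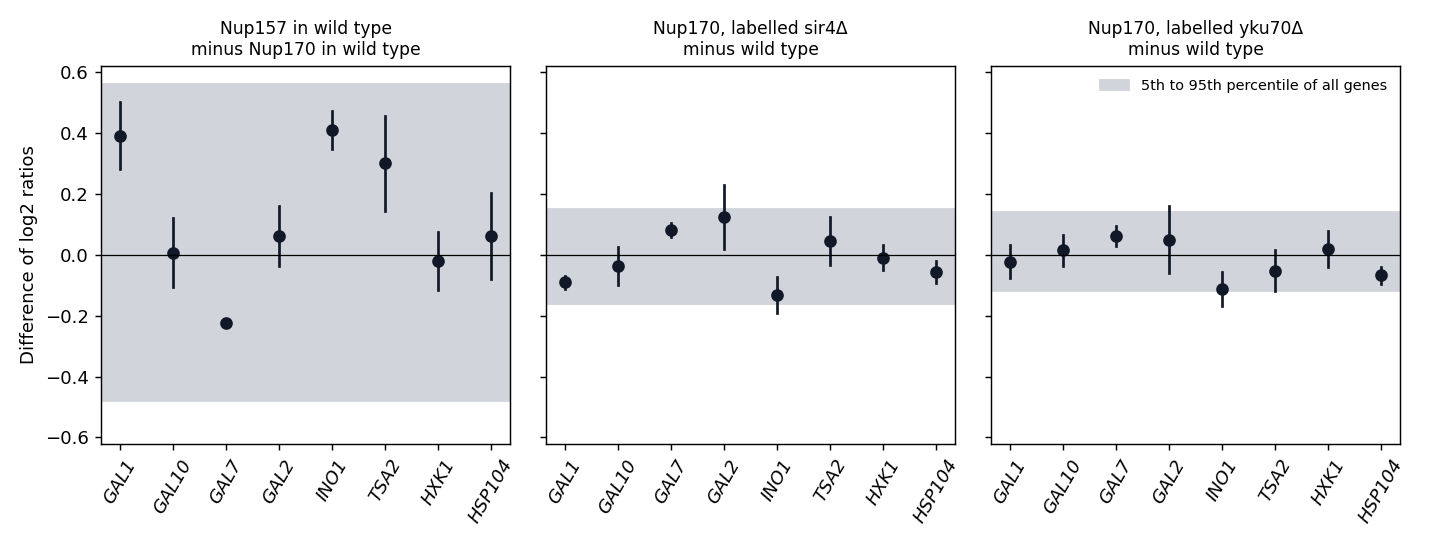
Difference of gene values between libraries for each gene, with a point for the mean, a line over the 4 pairings of hybridisations and a grey band from the 5th to the 95th percentile of all genes. INO1 reaches 0.41 for Nup157 minus Nup170 in wild type and lies at -0.13 and -0.11 in the libraries labelled sir4∆ and yku70∆ minus wild type.

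The order of the members with Nup157 was INO1, GAL1, TSA2, HSP104, GAL2, HXK1, GAL10 and GAL7. The ranges of the hybridisations of neighbours overlapped everywhere in this order except between INO1 and GAL1 and between GAL10 and GAL7. In the Nup170 wild-type library, HSP104 and INO1 led at 0.088 and 0.087 and overlapped, and only GAL7 stood clear of the member above it. GAL2 led and GAL7 came last in both libraries from labelled deletion strains.

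Genes next to the members show how far a value belongs to the gene itself. With Nup157, SNA3, beside INO1 on its promoter side, was at 0.36, against -0.18 with Nup170 in wild type, while VPS35 on the other side was at -0.081, against -0.040. That mean over 14 probes hides the probes nearest to INO1, chosen here after their values were seen. The VPS35 promoter probes 1787 and 1975 bp from the start of INO1 read 0.65 and 0.80 with Nup157, against -0.27 and -0.35 with Nup170 in wild type. The higher Nup157 values thus ran past INO1 on both sides. ISA1, upstream of HSP104, was at 0.31 with Nup157, against 0.036, and RPN12 beside HXK1 at 0.22, against -0.12. FUR4 next to GAL1 was at -0.014 with Nup157, against -0.16 with Nup170 in wild type, and KAP104 next to GAL7 at -0.13, against -0.011. SRL2, downstream of GAL2, was at -0.42 with Nup157, against -0.22. PPN1 and GUK1, on either side of TSA2, were at -0.026 and -0.00064 with Nup157. EMP46, upstream of GAL2, was at 0.099 with Nup157, IRC7 upstream of HXK1 at -0.37 and PAU17 downstream of HSP104 at -0.061. The genes beside GAL1 and TSA2 were thus not high with Nup157, while INO1 and HSP104 each had 1 neighbour at 0.31 or above.

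Other genes of the same pathways were taken from 5 lists of 8 genes, all of them measured, which were drawn up with earlier results of these data known. Of the 40 genes, 32 were above 0 with Nup157 (48.9% of all genes), 20 and 21 for Nup170 in the libraries labelled sir4∆ (46.2%) and yku70∆ (45.7%), and 20 in wild type (43.0%). At 1.5-fold up or more were 6 with Nup157 (5.57% of all genes), 0 in the libraries labelled sir4∆ (0.941%) and yku70∆ (1.63%), and 1 with Nup170 in wild type (2.37%). No list gene reached 1.5-fold down. Of all genes, 2.53% did with Nup157, 0% in the libraries labelled sir4∆ and yku70∆, and 0.0362% with Nup170 in wild type. The medians of the 40 were 0.099 with Nup157 and -0.0012, 0.011 and -0.0023 for Nup170, beside -0.0082, -0.0099, -0.012 and -0.021 for all genes.

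Among the galactose genes outside the cluster, the median was 0.056 with Nup157 and 5 of 8 were above 0. GAL3, the galactose sensor, was the highest at 0.20, and MTH1, a regulator of hexose transporters, the lowest at -0.062. For Nup170 the medians were -0.060, -0.047 and -0.045 in the strains labelled sir4∆ and yku70∆ and in wild type. FUR4, the uracil permease beside GAL1, was the lowest of this list in each Nup170 library, at -0.18, -0.15 and -0.16. The inositol and phospholipid genes had a median of 0.18 with Nup157, and 0.027, 0.10 and 0.079 for Nup170. OPI1, the repressor of INO1, was the highest there with Nup157 at 0.60, and ITR1, an inositol transporter, with Nup170 in wild type at 0.29.

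The list of hexose phosphorylation and glucose repression had a median of 0.12 with Nup157, led by GLK1, a glucokinase, at 0.69. For Nup170 the medians were 0.0095, -0.0095 and -0.040 in the strains labelled sir4∆ and yku70∆ and in wild type. HXK2, the hexokinase of glucose-grown cells and paralog of HXK1, led in all 3 Nup170 libraries, at 0.14, 0.33 and 0.23. Peroxide defence had a median of 0.24 with Nup157, led by SOD1, a superoxide dismutase read by 2 probes, at 0.88. For Nup170 its medians were 0.044, 0.087 and 0.035. AHP1, a peroxiredoxin, led there at 0.57, 0.58 and 0.70, and it was the list gene past 1.5-fold in wild type. The heat shock genes had medians of 0.062 with Nup157 and 0.0038, 0.0069 and 0.025 for Nup170, and HSP12 led with Nup157 at 0.55.

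The genes whose values were most like the median profile of the members were found by the root mean square difference over the 4 libraries, among 5203 genes with at least 3 probes. They were RQT4 at 0.0096, PAU7 and EPL1 at 0.011, and CWC23 and RTC1 at 0.012. RQT4, the nearest, had 0.087 with Nup157, -0.034 and -0.024 for Nup170 in the libraries labelled sir4∆ and yku70∆, and -0.013 in wild type. Since these genes were chosen for likeness to that median, their values close to 0 with Nup170 follow from the choice.

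Across the 82 probes the 2 hybridisations of a library correlated with Pearson's r of 0.64 for Nup157 and of 0.66, 0.67 and 0.59 for Nup170 in the strains labelled sir4∆ and yku70∆ and in wild type, beside 0.57, 0.63, 0.70 and 0.68 over all probes. Between libraries r over the members was 0.42 for Nup157 with Nup170 in wild type, and 0.73 to 0.79 among the Nup170 libraries. These r values are descriptions across probes that share an array and a probe sequence, and neighbouring probes are not independent, as they lie a median of 257 bp apart and fragments averaged 400 bp.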

How the data were processed

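Per the labels, ChIP DNA (Cy5) and whole cell extract (Cy3) of 4 strains were read on 2-colour arrays. The deposited intensity columns give foreground, local background and normalised signals; Agilent Feature Extraction is named in the submitters' processing notes, with no version. The deposited log2 ratios, per hybridisation and combined, equal normalised ChIP over normalised extract, as checked on the values, and the value table of the series holds the combined ratio. The p-values and the 0 or 1 marks for exclusion and bound regions (units p-value and other) are the authors', per the file headers. No source used here says how they were computed. Sequences of the probes and promoters were not used here.

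Of 41775 data probes, 295 mitochondrial ones and spots marked for exclusion were left out. Each hybridisation was centred on its median, hybridisations were averaged, and probes were averaged per gene. Promoter, ORF and downstream classes are those of the files, and RefSeq names matched 5639 of 5659 genes. Near blank means an extract foreground at or under a limit of 2.6 SDs over the mean of 660 blank spots. A probe or gene was called at a fold of 1.5. With 1 library in each group no test was made, and precision is limited by how few arrays there are. The range over the 4 pairings of hybridisations covers repeat measurement only.

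The members, pathway lists and named genes were chosen with earlier results of these data known. Named are the 8 members, the highest and lowest gene of each of 5 lists per library, the nearest neighbour on each side, and the 5 genes with the nearest profile. Alternatives were single hybridisations, the authors' combined ratio, normexp background (limma 3.58.1, R 4.3.3, offset 50), removal of the intensity trend (statsmodels 0.14.6), other probe sets and summaries, scaling by the lower-side SD and a threshold of 2-fold. Calculations used Python 3.11.15, numpy 2.4.6 and pandas 2.3.3, and scripts were tested on simulated data.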

Additional observations from a re-analysis of the deposited data

How the results depend on the processing

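Each median of the 8 genes was recomputed under 13 alternatives, and values that moved by more than the spread between hybridisations follow. For Nup157 (0.096 as reported) the median was 0.301 with normexp background, -0.0868 over promoter probes, 0.301 over ORF probes, 0.239 with probes assigned by position and 0.225 in units of the lower-side SD. For Nup170 in the strain labelled sir4∆ (-0.043) it was 0.0411 with normexp, -0.109 over promoter probes, -0.0783 with the median over probes and -0.197 in SD units. For the library labelled yku70∆ (-0.034) it was 0.0306, -0.157 and -0.178 with normexp, promoter probes and SD units, and for Nup170 in wild type (-0.023) -0.112 and -0.0952 with promoter probes and SD units. Normexp moved the median of all genes by 0.092 for Nup157 and by less elsewhere. Nup157 minus Nup170 in wild type (0.061) gave 0.252 over ORF probes, 0.238 by position, 0.259 in SD units and, in an alternative chosen after seeing the data, 0.157 without probes over 1000 bp upstream. The library labelled sir4∆ minus wild type gave -0.137 in SD units, and the one labelled yku70∆ minus wild type -0.0594 with the first hybridisation alone and -0.0697 in SD units. Values in SD units are on another scale than the spread, which is in log2 units, so their listing here follows in part from the change of unit.

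Probes up in the Nup157 library numbered 1 at 2-fold and 16 with the first hybridisation alone, in place of 10, and probes down 2 and 14, in place of 9. In the library labelled sir4∆ 0 were up at 2-fold and 1 with the first hybridisation, and in the one labelled yku70∆ 0 were up at 2-fold and 1 down with the second. For Nup170 in wild type 0 were up and 0 down at 2-fold, with 4 down in the first hybridisation alone and 0 in the second. The shares of all probes under these settings were not computed, so these counts of member probes have no background here. Of 672 gene values under other settings, 456 moved by no more than the spread between hybridisations, 216 by more, and 72 differed in sign from the reported value. These counts include values in SD units, which were set against a spread in log2 units. INO1, GAL1 and TSA2 stayed above 0 in Nup157 minus Nup170 in wild type under the 12 settings run for single genes, from 0.24, 0.28 and 0.12 upward. INO1 stayed below 0 in both labelled deletion libraries minus wild type, up to -0.099 and -0.078. INO1 ORF minus promoter, recomputed after seeing the data, stayed below 0 in the Nup170 libraries under 5 settings. The causes of these shifts were not tested. No paired analysis was possible because each group has 1 library.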

Other observations

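Some high ratios within 5000 bp of a member gene belonged to probes of other genes, picked here after their values were seen. Between 3568 and 4352 bp upstream of INO1, 4 probes that the files annotate to the promoter of RPA34, an RNA polymerase I subunit gene, read up to 1.41 with Nup157, up to 1.16 and 1.38 for Nup170 in the libraries labelled sir4∆ and yku70∆, and up to 1.42 in wild type. A probe 3900 bp past the start of HSP104, annotated to the promoter of PAU17, read 0.53 with Nup157, and 0.72, 0.83 and 0.96 for Nup170 in the strains labelled sir4∆ and yku70∆ and in wild type.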
